A study of Mus musculus with 24 samples.

Results

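The 72 genes described here carry zinc finger names from Zfp800 to Zfp999, and were picked by that symbol alone from the 16617 genes of a mouse embryonic stem cell expression table. They bear 71 distinct symbols, because Zfp976 stands on 2 gene identifiers, of which 1 is Zfp977 in the GENCODE vM21 annotation. The rule uses no expression value, though earlier results of these data were known when the members were chosen.

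Most genes of this name block encode KRAB zinc finger proteins, the largest family of transcription factors in mammals. Their tandem fingers read DNA, often sequence derived from retrotransposons, and their KRAB domain recruits the scaffold protein TRIM28 with the histone methyltransferase SETDB1, HP1 proteins and other silencing factors. The genes lie in tandem clusters that grew by duplication, and in embryonic stem cells they are known for silencing endogenous retroviruses and for restricting the genes next to them. Zfp809, which recognises the primer binding site of murine leukaemia virus, is a well studied member. Translated from the annotation, 60 of the 72 genes carried the core of a KRAB domain, 11 did not and 1 had no coding transcript, with a median of 11 zinc fingers in the longest protein.

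RNA came from 4 mouse lines, each in the naive state (grown with LIF and 2 inhibitors) and in the formative state, 63 h after their withdrawal. MLL3KO_MLL4KO cells lack both MLL3 and MLL4, the histone methyltransferases encoded by Kmt2c and Kmt2d that act at enhancers. MLL3KO_MLL4fl cells lack MLL3 and carry floxed MLL4, MLL3CD_MLL4CD cells carry catalytically dead forms of both, and WT cells carry neither change. These lines are called knockout, floxed, catalytic-dead and wild type. The labels name R1 as the line of wild-type and catalytic-dead cells. Each genotype is 1 line, so genotype and line cannot be told apart, and the comparison of floxed with wild-type cells cannot separate MLL3 from other properties of those lines. Labels give 3 independently cultured samples per group, 24 in all.

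Sequencing read the 3′ end of each transcript, so tags do not grow with transcript length and CPM (counts rescaled so that every library sums alike) need no division by length. The deposited values are group means, from which 23 libraries of 4.81 to 15.4 M counts could be recovered. Naive wild type has 2 libraries, and the formative knockout mean held a catalytic-dead library, which was taken out. For means that need no recovered counts, that was done by subtracting the catalytic-dead mean in its place, so formative knockout levels and differences called deposited means below are adjusted and approximate. Libraries are called a, b and c by falling depth. Mean Kmt2d levels were 17.6 CPM in naive knockout cells, against 28.8 CPM in naive floxed cells, and 19.7 CPM in formative knockout cells, against 25.5 CPM in formative floxed cells, and Kmt2c means were 16.2 to 23.4 CPM in knockout and floxed groups, against 35.4 to 67.4 CPM in catalytic-dead and wild-type groups. The deleted parts are not named in the labels, so these 3′ tags do not check the deletions. Summed naive-state markers were 295 to 505 CPM in formative groups, against 1730 to 2280 CPM in naive groups. Primitive endoderm markers summed to 31.7 CPM in naive knockout cells, against 4.49 CPM in naive floxed cells, and to 54.3 CPM in naive catalytic-dead cells, against 5.62 CPM in naive wild-type cells. Most of these sums was Dab2, at 24.9 CPM in naive knockout and 49.6 CPM in naive catalytic-dead cells, and limma called 2 of 4 tested markers (Dab2 and Foxa2) in the knockout and 1 (Dab2) in the catalytic-dead comparison. Gata4 and Gata6 were at or below 1.29 CPM in those 4 groups. Trophoblast markers summed to 65.8 CPM in naive knockout cells, against 20.7 CPM in naive floxed cells, with 3 of 4 tested called higher. Fibroblast markers summed to 27.9 CPM in formative knockout cells, against 15.0 CPM in formative floxed cells, with 3 of 4 tested called higher and Thy1 lower. Markers of 2-cell-like cells summed to 1.71 to 3.59 CPM in the floxed and knockout groups, against 13.1 to 33.2 CPM in the catalytic-dead and wild-type groups. The part of these markers in the results below was not tested.

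The members were low to moderate in level. Their mean over the 8 groups ran from 0.468 to 89.4 CPM with a median of 7.88 CPM, against 9.15 CPM over all genes and 11.1 CPM over the 253 other genes named Zfp plus a number. Only 3 members averaged under 1 CPM, 38 lay between 1 and 10 CPM, and 31 reached 10 CPM or more. The 6 most abundant were Zfp979 at 89.4 CPM, Zfp930 at 85.5 CPM, Zfp961 at 73.7 CPM, Zfp870 at 62.3 CPM, Zfp809 at 55.5 CPM and Zfp871 at 42.8 CPM.

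These abundant members have too many possible counts to recover libraries in most groups, so their levels are the authors' group means, adjusted in formative knockout cells as above, without an error. Zfp809 ranged narrowly, at 55.8, 37.5, 50.2 and 54.4 CPM in formative knockout, floxed, catalytic-dead and wild-type cells, against 65.3, 60.0, 59.9 and 66.9 CPM in the same lines in the naive state. Zfp870 had 36.3, 40.9, 38.3 and 48.5 CPM in formative knockout, floxed, catalytic-dead and wild-type cells, against 59.4, 139, 71.4 and 140 CPM in those lines in the naive state. Zfp870 was thus lower in the formative state in every line, and lower in naive knockout and naive catalytic-dead cells than in naive floxed and naive wild-type cells. Zfp979 stood at 61.9 CPM in formative knockout cells, against 122 CPM in formative floxed cells, and at 59.5 CPM in naive knockout cells, against 134 CPM in naive floxed cells. None of these differences has a test. In all, 56 members were recovered in every group and 16 were not, among them all 6 just named.

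The span of each member across groups is given without the spans of other genes beside it. The deposited means of a member spanned a median of 1.22 log2 from the lowest to the highest group, 47 members spanned 2-fold or more and 12 spanned 4-fold or more. Zfp980 spanned 3.44 log2, Zfp819 2.76, Zfp991 2.58, Zfp853 2.53, Zfp963 2.37 and Zfp981 2.28. Zfp991, Zfp853 and Zfp963 averaged 1.09, 0.468 and 1.07 CPM, and Zfp980 held 4, 4 and 2 counts in naive knockout libraries. Counting noise can widen spans at such levels. The most even was Zfp866, at 0.25 log2, with group means of 21.9 to 26.2 CPM.

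**Figure D1:**
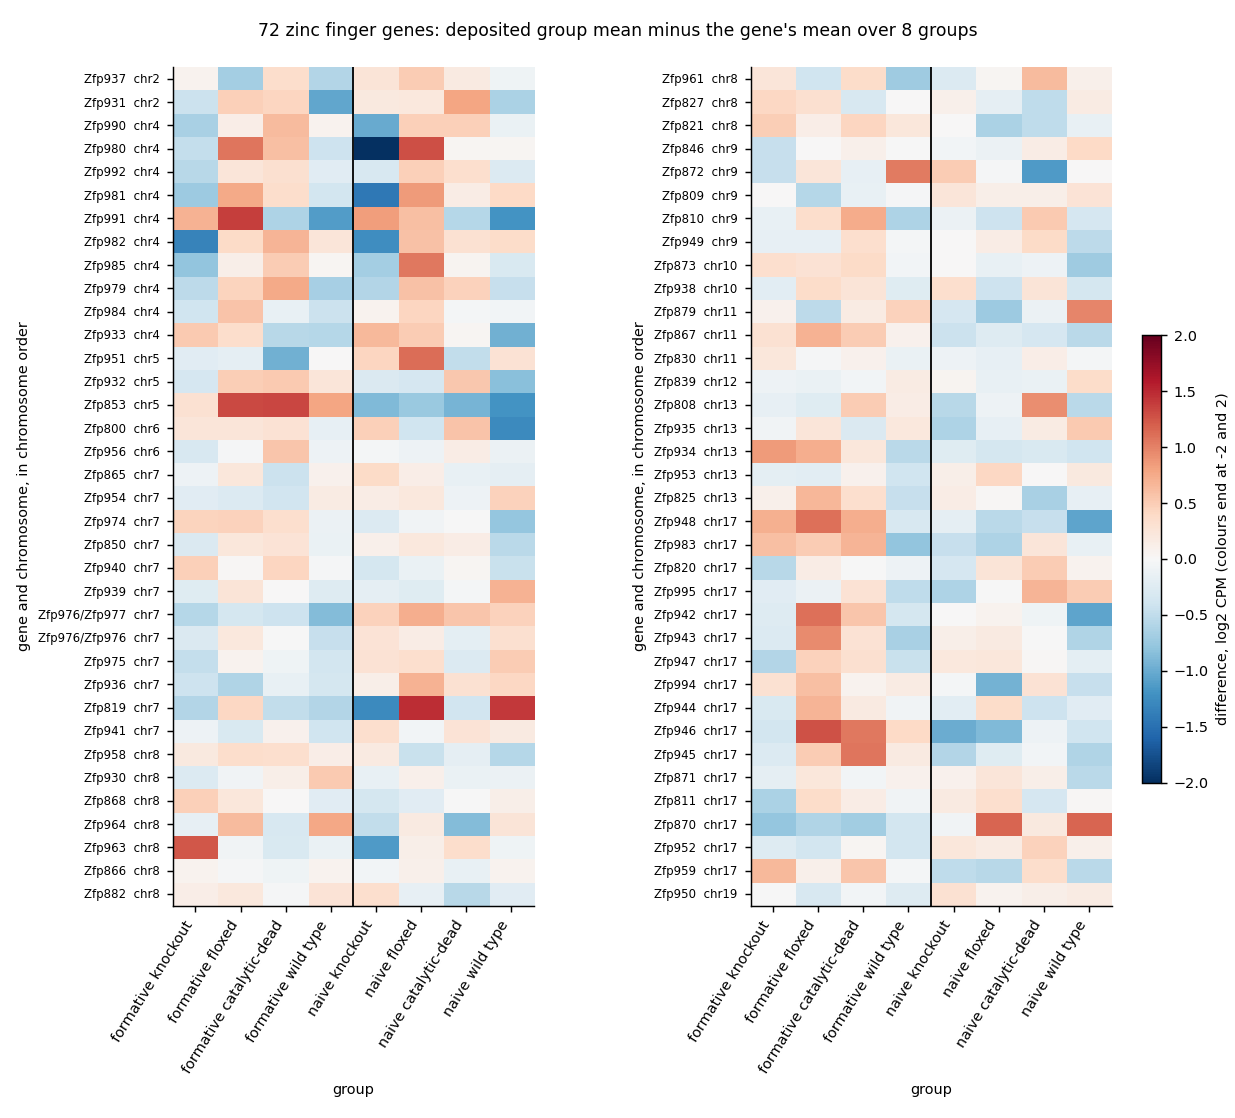
Colour shows the deposited group mean of each of the 72 members minus that gene's mean over the 8 groups (log2 CPM), with genes down the page in chromosome order and groups across, formative left of naive. The darkest blue cell is Zfp980 in naive knockout cells, and the dark red cells of Zfp819 are naive floxed and naive wild type.

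The genes are clustered: 35 of the 72 lie in 5 runs of at least 4 members, each starting within 1 Mb of the next. The longest holds 11 members on chromosome 17, between 21567008 and 22867134, and the next holds 10 on chromosome 4, between 145510759 and 147848366 (GRCm38, also called mm10). Runs of 5 lie on chromosome 7 (42579783 to 43618285) and chromosome 8 (69209038 to 69791178), and a run of 4 lies on chromosome 17 (32765496 to 33005457). Tags are assigned to such genes with limits. The last 500 bases of each member's annotated transcripts were cut into words of 50 bases, the read length, and searched in all other genes' transcripts. Of the 72 members, 24 shared no word with another gene, 24 shared more than 10% of their words, and Zfp980 (64.1%) and Zfp991 (63.2%) shared more than 50%. The sources used here do not give how reads that match several genes were counted or whether strand was used. Levels of members that share words are therefore uncertain.

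In naive knockout cells, which lack MLL4 as well as MLL3, genes of the chromosome 4 run and Zfp819 stood well below their levels in naive floxed cells. Knockout against floxed naive cells gave 9 called members of 59 tested, 4 higher and 5 lower, where 17.5% of all tested genes were called, 8.07% higher and 9.42% lower. Called means a limma adjusted p under 0.05 over all genes tested, and only such genes are said to rise or fall.

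Zfp980 had 0.259, 0.355 and 0.248 CPM in naive knockout cells, against 9.60, 5.09 and 2.72 CPM in naive floxed cells. The groups did not overlap, and the knockout libraries held 4, 4 and 2 counts of it. On the log2 scale, with a prior count of 2, it fell by 3.45 ± 0.56 (SE, limma adjusted p = 5.32e-05).

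Zfp981 had 2.33, 1.86 and 2.10 CPM in naive knockout cells, against 12.4, 12.3 and 8.61 CPM in naive floxed cells. It fell by 2.28 ± 0.40 log2 (SE, limma adjusted p = 0.000149), and all 3 knockout libraries lay below all floxed ones. Zfp982, which has been linked to the expression of pluripotency genes in mouse stem cells, had 3.5, 3.28 and 2.72 CPM in naive knockout cells, against 11.5, 10.6 and 13.1 CPM in naive floxed cells. Again without overlap, it fell by 1.82 ± 0.34 log2 (SE, limma adjusted p = 0.000245). Zfp990 had 12.9, 12.9 and 12 CPM in naive knockout cells, against 46.9, 32.2 and 30.2 CPM in naive floxed cells, and fell by 1.49 ± 0.24 log2 (SE, limma adjusted p = 9.32e-05). The 4 calls held when any 1 library was left out.

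Of the 8 tested members of the run, limma called these 4. By deposited means, 8 of its 10 members were lower in naive knockout than in naive floxed cells, with a median difference of -1.33 log2. Zfp992 (-0.80 log2, limma adjusted p = 0.0681) and Zfp984 (-0.36 log2, limma adjusted p = 0.536) missed the threshold. Zfp985 (-1.72 log2) and Zfp979 (-1.17 log2) have means without a test. Zfp991 at 0.24 log2 (limma adjusted p = 0.779) and Zfp933, the last gene of the run, at 0.14 log2 (limma adjusted p = 0.768) did not pass either. Among the 23 other table genes between the first and last member, 22 were tested and 6 fell, with a median of -1.05 log2 over the 23. Readings of members and their neighbours in this stretch were thus low together. Zfp980 and Zfp981 share 3′ words with each other and with Rex2 and Zfp600, which lie in the same stretch. Whether the same tags were counted for several of these genes was not tested. Over all genes the median of the same difference was 0.01 log2.

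In formative knockout cells Zfp980, Zfp981 and Zfp982 were again below their levels in formative floxed cells. Zfp982 had 3.21, 5.0 and 2.29 CPM in formative knockout cells, against 9.70, 12.4 and 8.58 CPM in formative floxed cells, and fell by 1.55 ± 0.37 log2 (SE, limma adjusted p = 0.00440). Zfp981 had 2.71, 5.0 and 2.70 CPM in formative knockout cells, against 9.24, 12.4 and 9.33 CPM in formative floxed cells, and Zfp980 had 1.0, 0.856 and 2.08 CPM, against 3.67, 4.74 and 4.85 CPM in formative floxed cells. Knockout and floxed libraries did not overlap for the 3 genes. Formative wild-type cells had 1.22, 1.18 and 1.99 CPM of Zfp980 and 3.67, 6.08 and 4.25 CPM of Zfp981, which overlap the knockout values. They had 8.14, 13.6 and 6.91 CPM of Zfp982, all above the knockout values. Knockout was not tested against wild type. Zfp981 fell by 1.56 ± 0.40 log2 (SE, limma adjusted p = 0.00695) and Zfp980 by 1.68 ± 0.47 log2 (SE, limma adjusted p = 0.0129). Without formative knockout library a those 2 calls were lost, at limma adjusted p of 0.0537 for Zfp981 and 0.0760 for Zfp980. Zfp980 was also lost without formative knockout library b (0.0724) and with the formative knockout mean as deposited (0.0531). Zfp982 shares 3.82% of its 3′ words with other genes, Zfp981 31.4% and Zfp990 32.6%.

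**Figure D2:**
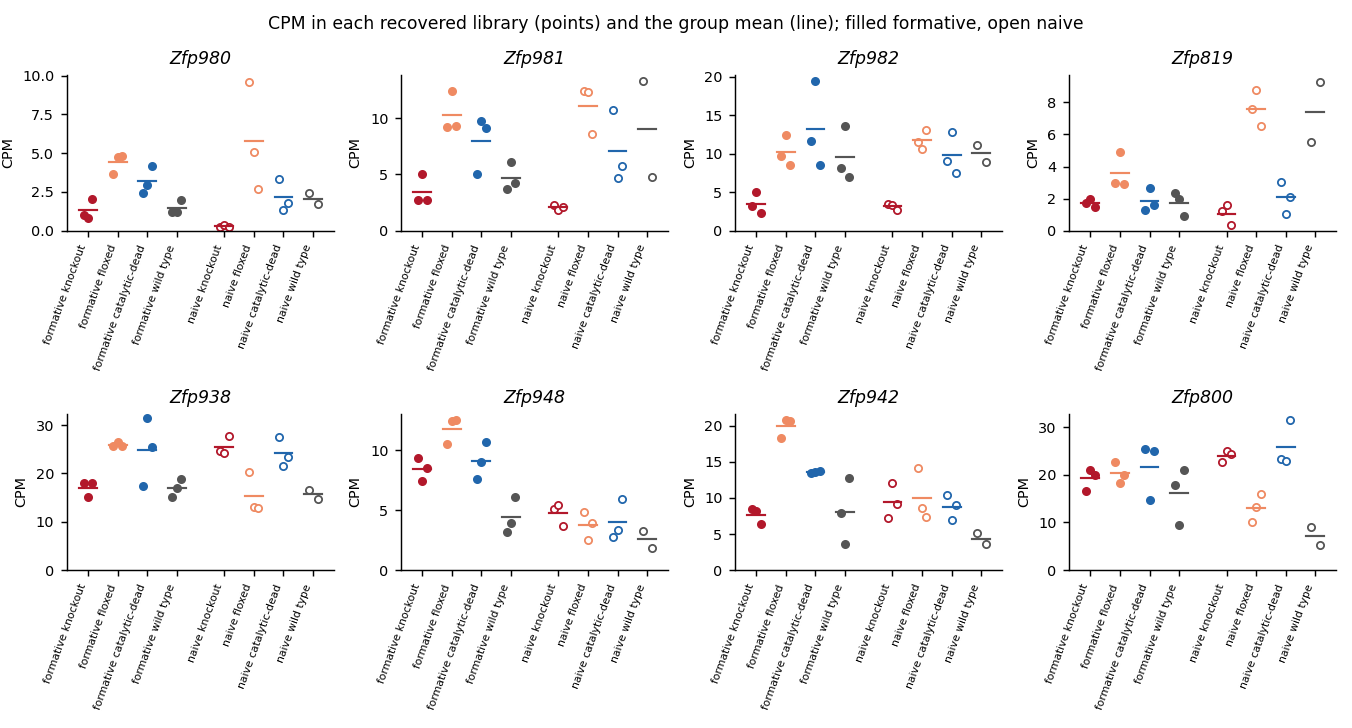
Points are CPM in single recovered libraries and lines are group means for 8 members, with filled formative points left of open naive points. Zfp980, Zfp981 and Zfp819 have their lowest mean in naive knockout cells, Zfp982 is low in both knockout groups, and Zfp938 is high in formative floxed and naive knockout cells.

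Because the readings of these neighbours were low together, their promoters are shown. RefSeq promoters (GRCm38.p6, 250 bases before to 50 after the start) were found for 64 of the 71 symbols and read for 63, leaving out the doubled symbol. The stretch ATTGGGCGG, in which a CCAAT box in reverse overlaps a GC box by a pair of bases, stood in 6 of the 7 chromosome 4 run promoters read. Counting both strands, it stood in 8 of 63 member promoters (12.7%), against 84 of 32544 distinct promoters of all genes (0.258%). Of those 84, 10 lay within the run, 4 of them at genes that are not members. This motif was chosen after the sequences had been read. Capitals mark it below, in 3 genes that fell and in Zfp984, which did not pass.
Zfp980, chr4:145670447-145670746, plus strand: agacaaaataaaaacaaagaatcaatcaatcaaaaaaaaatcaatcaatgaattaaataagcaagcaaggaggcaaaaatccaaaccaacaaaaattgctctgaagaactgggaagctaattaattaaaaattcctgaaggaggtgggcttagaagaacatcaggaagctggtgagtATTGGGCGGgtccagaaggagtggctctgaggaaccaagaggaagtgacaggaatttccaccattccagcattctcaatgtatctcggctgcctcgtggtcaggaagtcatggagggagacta
Zfp981, chr4:146514670-146514969, plus strand: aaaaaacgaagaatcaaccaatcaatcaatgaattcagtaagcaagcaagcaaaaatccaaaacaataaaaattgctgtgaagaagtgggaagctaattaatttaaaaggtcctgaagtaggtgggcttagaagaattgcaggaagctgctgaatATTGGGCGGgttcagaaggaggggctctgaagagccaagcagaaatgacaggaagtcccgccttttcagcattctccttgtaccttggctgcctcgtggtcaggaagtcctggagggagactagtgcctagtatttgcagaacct
Zfp982, chr4:147492167-147492466, plus strand: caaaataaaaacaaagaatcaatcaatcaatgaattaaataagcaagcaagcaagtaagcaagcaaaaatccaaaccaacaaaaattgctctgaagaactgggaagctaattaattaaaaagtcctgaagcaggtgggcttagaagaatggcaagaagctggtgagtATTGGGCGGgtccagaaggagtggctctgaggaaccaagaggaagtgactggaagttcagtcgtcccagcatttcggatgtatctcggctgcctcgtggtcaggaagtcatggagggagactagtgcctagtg
Zfp984, chr4:147809739-147810038, minus strand: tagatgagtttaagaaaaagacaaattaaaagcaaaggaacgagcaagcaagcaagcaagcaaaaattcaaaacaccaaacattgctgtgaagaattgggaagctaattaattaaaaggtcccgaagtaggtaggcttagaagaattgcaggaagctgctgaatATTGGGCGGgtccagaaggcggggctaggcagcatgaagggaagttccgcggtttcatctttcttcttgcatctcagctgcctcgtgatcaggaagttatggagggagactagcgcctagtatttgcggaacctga
The stretch thus stood in the promoter of a member that fell and of one that missed the threshold alike. Among the 7 promoters, aligned end to end, identity ran from 49.6% to 89.8% with a median of 73.8%. Zfp933, without the stretch, was the least alike, at 49.6% to 52.2% identity with the others. Searched alone on both strands, the reverse CCAAT box (letters ATTGG) stood in 45 of 63 member promoters (71.4%), against 37.4% of all promoters. The GC box (letters GGGCGG) stood in 28 of 63 (44.4%), against 35.9%. A match describes letters and is not a bound site.

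Zfp819, a KRAB zinc finger gene on chromosome 7 known for repressing retroelements in mouse embryonic stem cells, was the most changed member outside the chromosome 4 run. Its values were 1.23, 1.6 and 0.371 CPM in naive knockout cells, against 7.55, 8.75 and 6.5 CPM in naive floxed cells. It fell by 2.76 ± 0.42 log2 (SE, limma adjusted p = 2.71e-05), with no overlap. In naive catalytic-dead cells it had 3.02, 1.07 and 2.13 CPM, against 5.55 and 9.28 CPM in naive wild-type cells. That fall, by 1.80 ± 0.41 log2 (SE, limma adjusted p = 0.00509), was lost at adjusted p = 0.0607 when only those groups were fitted. The formative state was low in all lines, at 1.46 to 2.0 CPM in knockout, 2.89 to 4.91 in floxed, 1.29 to 2.65 in catalytic-dead and 0.930 to 2.38 in wild-type cells. Against naive cells of the same line, formative cells fell by 2.0 ± 0.40 log2 in wild type (SE, limma adjusted p = 0.000262) and by 1.07 ± 0.31 log2 in the floxed line (SE, limma adjusted p = 0.00779, and 0.0590 without weights). The transition was 0.74 log2 in the knockout line (limma adjusted p = 0.332) and -0.11 log2 in the catalytic-dead line (limma adjusted p = 0.897). Tested directly, these transitions did not differ past the threshold, by 1.81 ± 0.60 log2 for knockout minus floxed (SE, limma adjusted p = 0.0615) and by 1.89 ± 0.61 log2 for catalytic-dead minus wild type (SE, limma adjusted p = 0.0912).

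Of the 4 members that rose in naive knockout cells, Zfp938 was the only call that held without each library. It had 24.6, 24.3 and 27.8 CPM in naive knockout cells, against 20.2, 13.0 and 12.8 CPM in naive floxed cells, a rise of 0.76 ± 0.20 log2 (SE, limma adjusted p = 0.00790). In the formative state the order turned: 18.0, 15.1 and 18.1 CPM in knockout cells, against 25.7, 26.5 and 25.6 CPM in floxed cells. Neither state overlapped. The formative fall, by 0.60 ± 0.20 log2 (SE, limma adjusted p = 0.0433), was lost whichever library was left out, with adjusted p of 0.0664 to 0.159, and with the knockout mean as deposited (0.144). The transition of the knockout line minus that of the floxed line was -1.36 ± 0.29 log2 (SE, limma adjusted p = 0.00278), and it held without each library and under every alternative. It was the 1 call of 57 tested members for this difference, where 8.28% of all genes were called, 5.15% higher and 3.13% lower. With size factors 4 members were called, all lower, with no share of all genes given for that setting.

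Zfp800, which lacks a KRAB core, had 22.6, 25.1 and 24.4 CPM in naive knockout cells, against 10.2, 13.3 and 15.9 CPM in naive floxed cells. The groups were apart, by 0.88 ± 0.25 log2 (SE, limma adjusted p = 0.0144), but the call was lost without naive floxed library a, at an adjusted p of 0.0956. Zfp821 and Zfp958 also rose, by 0.64 and 0.62 log2 (limma adjusted p of 0.0440 and 0.0189). Zfp821 was lost without any library but naive knockout c, at adjusted p of 0.0668 to 0.143. Zfp958 was lost when naive knockout library a was left out (0.0754) and when naive floxed library b (0.0740) or c (0.0941) was. With only the compared groups fitted, both were lost (0.0628 for Zfp821 and 0.0731 for Zfp958).

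Formative knockout cells showed no member rising. Of 61 tested, 11 were called against formative floxed cells and all 11 fell, where 17.2% of all tested genes were called, 10.6% higher and 6.59% lower. All 11 carry a KRAB core, as do 51 of the 61 tested. By deposited means the median over the 72 members was -0.31 log2, against 0.14 over other Zfp genes and 0.07 over all genes, and 25 of 72 lay above 0. With the formative knockout mean as deposited, 6 members were called, and 4 without formative knockout library a and 6 without library b.

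The chromosome 17 run holds 5 of the 11. Zfp942 had 8.52, 8.14 and 6.45 CPM in formative knockout cells, against 18.3, 20.8 and 20.7 CPM in formative floxed cells, and fell by 1.36 ± 0.30 log2 (SE, limma adjusted p = 0.00192). Zfp944 had 6.92, 6.42 and 8.11 CPM in formative knockout cells, against 16.0, 13.1 and 16.1 CPM in formative floxed cells, and fell by 1.05 ± 0.26 log2 (SE, limma adjusted p = 0.00534). Both were without overlap between knockout and floxed cells, and both calls held without each library. Formative wild-type cells had 7.92, 3.63 and 12.8 CPM of Zfp942 and 9.65, 7.75 and 9.17 CPM of Zfp944, which overlap the knockout values. Knockout was not tested against wild type. Zfp946 fell by 1.64 log2, Zfp943 by 1.21 and Zfp947 by 1.16, and none of these calls held. Zfp946 was lost without formative floxed library a or b or formative knockout library a or b, at limma adjusted p of 0.0592, 0.0674, 0.172 and 0.0850. Zfp943 was lost without formative floxed library a or formative knockout library a or b, at 0.0566, 0.134 and 0.0581. Zfp947 was lost without any library but formative floxed b, at 0.0777 to 0.151. Zfp946 and Zfp947 were also lost with the knockout mean as deposited (0.0657 and 0.169), Zfp943 and Zfp946 with only the compared groups fitted (0.0509 and 0.0544), and Zfp947 with a prior count of 0.5 (0.0556). In the naive state none of the 10 tested members of this run was called between knockout and floxed cells by limma. Zfp994 and Zfp944 had unadjusted p of 0.0448 and 0.0257, and the run's median was -0.06 log2, against -0.78 in the formative state.

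The remaining 3 were Zfp938, given above, Zfp811 and Zfp932. Zfp811, in the run of 4 on chromosome 17, had 7.12, 10.8 and 8.11 CPM in formative knockout cells, against 16.3, 18.4 and 17.1 CPM in formative floxed cells. It fell by 0.99 ± 0.20 log2 (SE, limma adjusted p = 0.00109), apart in every library and held without each. Formative wild-type libraries had 12.7, 12.6 and 12.8 CPM of Zfp811, above the knockout values. Zfp932, which represses endogenous retroviruses in mouse cells, fell by 0.90 log2 (limma adjusted p = 0.0206), a call lost without formative knockout library a (0.145) or b (0.0522) or formative floxed library b (0.0848), with the knockout mean as deposited (0.146) and with only the compared groups fitted (0.0529). It shares 43.4% of its 3′ words with other genes.

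Formative floxed cells, the same libraries that serve as control above, were also set against formative wild-type cells. There 11 of 59 tested members were called, all higher, where 9.56% of all tested genes were called, 4.14% higher and 5.42% lower. The median over the 72 members was 0.31 log2, against 0.01 over other Zfp genes and over all genes, and 55 of 72 lay above 0. Both comparisons use the formative floxed libraries, so the 2 counts are not independent.

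Zfp991 had 4.35, 1.52 and 2.71 CPM in formative floxed cells, against 0.144, 0.392 and 0.399 CPM in formative wild-type cells, the widest gap, at 2.5 ± 0.50 log2 (SE, limma adjusted p = 0.00143). Its formative wild-type libraries held 2, 4 and 3 counts, and 63.2% of its 3′ words are shared with other genes. Zfp991 passed the filter only through floxed and knockout libraries, where it was high, so this call cannot stand as support for the gap. Zfp943 had 9.77, 6.10 and 6.81 CPM in formative floxed cells, against 2.59, 2.75 and 1.73 CPM in formative wild-type cells, and rose by 1.6 ± 0.32 log2 (SE, limma adjusted p = 0.00154). Zfp931 had 4.51, 7.37 and 5.41 CPM in formative floxed cells, against 2.38, 2.16 and 1.2 CPM in formative wild-type cells, and rose by 1.52 ± 0.35 log2 (SE, limma adjusted p = 0.00531). No floxed library of the 3 genes overlapped a wild-type one. Zfp942 rose by 1.45 and Zfp948 by 1.42 log2, at limma adjusted p of 0.000805 and 0.000539. These 5 calls held without each library. The other 6 (Zfp980, Zfp981, Zfp933, Zfp938, Zfp825 and Zfp944) were lost without formative wild-type library a, at limma adjusted p of 0.0979, 0.152, 0.224, 0.174, 0.241 and 0.0792, and each was also lost without 2 or more other libraries. The count of called members was 5 without formative wild-type library a, 6 without its library b, 6 without formative floxed library b and 6 without weights. Every one of the 11 chromosome 17 run members and of the 10 chromosome 4 run members was above 0 by deposited means, with medians of 0.88 and 0.96 log2, and 4 of 10 and 4 of 9 tested were called.

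**Figure D3:**
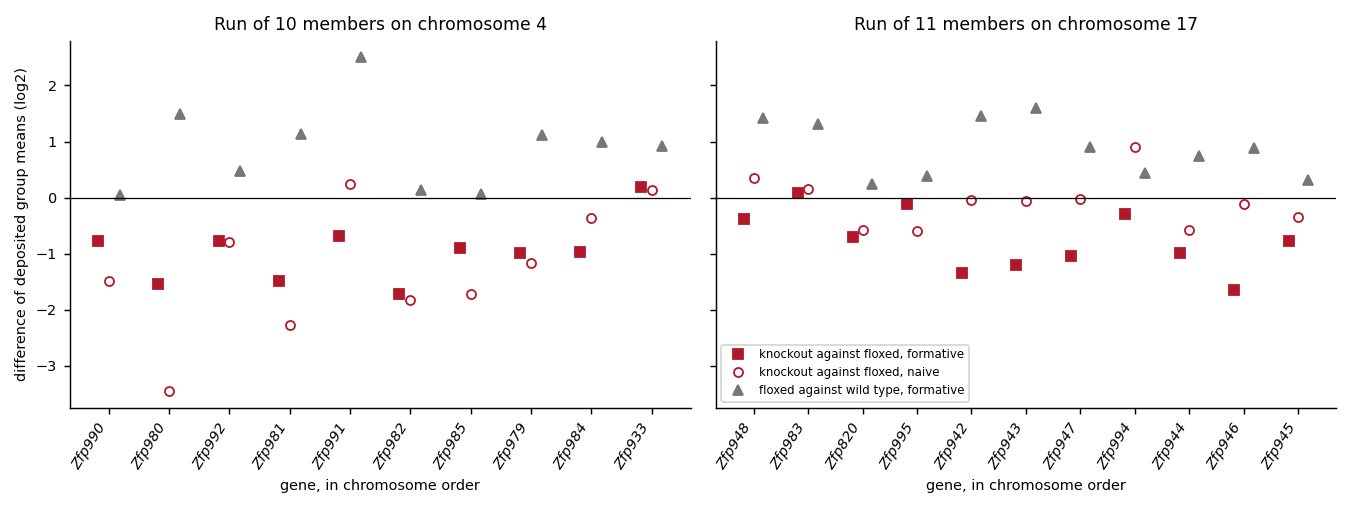
Each point is the difference of deposited group means (log2) for a member of the chromosome 4 run (left) or of the run of 11 on chromosome 17 (right), in chromosome order. Squares and circles are knockout against floxed in the formative and naive state, and triangles are floxed against wild type in the formative state, all of which lie above 0.

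The promoters of 3 chromosome 17 run members that fell in formative knockout cells are shown, with CACGTG, the E box, in capitals. It stood in 7 of the 11 promoters of this run on either strand, and in 10 of 63 member promoters (15.9%), against 7.17% of all promoters. Neither this motif nor the ETS core below was planned beforehand. Promoters of a run can be alike by duplication, so counts within it are not independent. The Zfp942 and Zfp943 windows overlap on opposite strands. The E box marked in Zfp942 lies in both, so the same site is counted for both genes. Zfp820 and Zfp994 also held an E box and were not called between formative knockout and floxed cells.
Zfp942, chr17:21962415-21962714, minus strand: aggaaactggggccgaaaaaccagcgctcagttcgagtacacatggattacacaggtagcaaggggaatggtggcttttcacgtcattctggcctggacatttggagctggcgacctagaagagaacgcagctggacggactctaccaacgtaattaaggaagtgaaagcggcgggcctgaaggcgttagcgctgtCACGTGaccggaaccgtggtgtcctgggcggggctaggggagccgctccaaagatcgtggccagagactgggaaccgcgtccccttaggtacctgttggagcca
Zfp944, chr17:22361351-22361650, minus strand: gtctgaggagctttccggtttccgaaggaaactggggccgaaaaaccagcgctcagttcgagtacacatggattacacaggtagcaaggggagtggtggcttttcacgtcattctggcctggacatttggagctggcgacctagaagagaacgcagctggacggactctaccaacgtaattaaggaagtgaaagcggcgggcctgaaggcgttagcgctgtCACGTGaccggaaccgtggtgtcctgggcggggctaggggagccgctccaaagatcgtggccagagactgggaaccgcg
Zfp946, chr17:22423952-22424251, plus strand: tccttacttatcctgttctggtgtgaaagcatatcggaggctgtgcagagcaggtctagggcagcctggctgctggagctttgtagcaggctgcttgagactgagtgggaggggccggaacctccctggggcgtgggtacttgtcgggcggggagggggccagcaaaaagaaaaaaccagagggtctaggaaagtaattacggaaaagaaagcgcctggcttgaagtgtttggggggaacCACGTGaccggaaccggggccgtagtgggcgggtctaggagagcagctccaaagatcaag
Zfp942 and Zfp944 were 84.3% identical over this window when aligned end to end, and Zfp944 and Zfp946 56.5%. CCGGAA, the core of an ETS site, stood in 8 of the 11 promoters, in 31.7% of member promoters and in 15.0% of all. That site, too, is the same for Zfp942 and Zfp943. Zfp948 held neither motif. Zfp942, Zfp943, Zfp944 and Zfp948 shared no 3′ word with another gene.

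In the naive state 2 of 62 tested members (3.23%) were called between floxed and wild-type cells, both higher. Of all genes 5.25% were called, 1.98% higher and 3.27% lower. Zfp933 rose by 1.46 log2 (limma adjusted p = 0.00752) and Zfp850 by 0.76 log2 (limma adjusted p = 0.0351). Both calls were lost without naive wild-type library a (0.0833 and 0.220) or b (0.0671 and 0.0657), and when only those groups were fitted (0.162 and 0.223). Zfp850 was also lost without naive floxed library a (0.124) or b (0.0584).

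The share of members called between catalytic-dead and wild-type cells was near that of all genes, at 8.96% in the naive and 6.67% in the formative state. In the naive state 6 of 67 tested were called, 4 higher and 2 lower, where 10.7% of all genes were called, 6.03% higher and 4.69% lower. Zfp800 had 23.3, 23.0 and 31.5 CPM in naive catalytic-dead cells, against 9.13 and 5.32 CPM in naive wild-type cells, and rose by 1.85 ± 0.33 log2 (SE, limma adjusted p = 0.000406), a call that held without each library. Zfp931 rose by 1.43, Zfp932 by 1.38 and Zfp850 by 0.68 log2, while Zfp951 fell by 0.78 log2. Without naive wild-type library a, these were lost at limma adjusted p of 0.235, 0.0916, 0.230 and 0.111, and 2 members were called in all. Zfp931 was also lost without naive catalytic-dead library c (0.0602), Zfp951 without its library b (0.0596), and Zfp850 without naive wild-type library b or naive catalytic-dead library a or c (0.0725 to 0.185) and with size factors (0.119). With only the compared groups fitted, Zfp931, Zfp951 and Zfp850 were lost (0.0742, 0.0583 and 0.11).

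The formative state had 4 of 60 tested members called, all higher, where 8.28% of all genes were called, 4.86% higher and 3.42% lower. Zfp931 was the 1 member called in both states. It had 4.87, 6.15 and 5.49 CPM in formative catalytic-dead cells, against 2.38, 2.16 and 1.2 CPM in formative wild-type cells, and rose by 1.48 ± 0.36 log2 (SE, limma adjusted p = 0.00908). In the naive state it had 5.37, 7.30 and 9.02 CPM in catalytic-dead cells, against 1.90 and 3.28 CPM in wild-type cells. Both states were without overlap, but the formative call was lost at 0.0513 without formative wild-type library c, and Zfp931 shares 23.6% of its 3′ words. Zfp810 rose by 1.36, Zfp948 by 1.05 and Zfp956 by 0.66 log2, at limma adjusted p of 0.0158, 0.0152 and 0.0257. All 3 were lost without formative wild-type library a (0.0641, 0.119 and 0.114), Zfp810 also without formative wild-type library c (0.0651) or catalytic-dead library b (0.0767), and Zfp948 without formative wild-type library b (0.0591) or catalytic-dead library c (0.0632). Among fits that left out 1 library, Zfp956 held only without formative wild-type library c, and it was lost with size factors (0.0778), without weights (0.0678) and with only the compared groups fitted (0.0650). Only 1 member was called without formative wild-type library a, and 2 without formative catalytic-dead library b or c. By deposited means 55 of 72 members were above 0, with a median of 0.40 log2, against 0.03 over all genes. The wild-type groups also serve as reference for floxed cells, so rises shared by catalytic-dead and floxed cells are not independent. The chromosome 4 genes that fell in knockout cells were not called here: Zfp982 had 11.6, 19.4 and 8.53 CPM in formative catalytic-dead cells, against 8.14, 13.6 and 6.91 CPM in formative wild-type cells, which overlap.

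Between the formative and naive states a smaller share of members than of all genes was called in each line, and the balance of higher and lower calls depended on the scaling. In wild-type cells 5 of 63 tested members were called between the formative and naive states, 3 higher and 2 lower, where 31.8% of all genes were called (19.2% higher, 12.5% lower). In the floxed line 15 of 59 members were called, 11 higher and 4 lower, where 33.4% of all genes were called (22.1% higher, 11.2% lower). In the knockout line 8 of 60 were called, 6 higher and 2 lower, where 26.4% of all genes were called (21.0% higher, 5.40% lower). In the catalytic-dead line 5 of 63 were called, all higher, where 29.1% of all genes were called (18.4% higher, 10.6% lower). The share of members called was thus 7.94%, 25.4%, 13.3% and 7.94% in the wild-type, floxed, knockout and catalytic-dead lines, beside 31.2%, 27.5%, 19.3% and 26.1% of the other Zfp genes tested. With size factors the wild-type count was 12 (3 higher, 9 lower) and the knockout count also 12 (1 higher, 11 lower). The floxed count was then 17 (10 higher, 7 lower) and the catalytic-dead count 6 (4 higher, 2 lower). The shares of all genes called with size factors are not given here, so these counts are not set against a background. Size factors moved the median of all genes by -0.14, -0.14, -0.24 and -0.08 log2 in wild-type, floxed, knockout and catalytic-dead cells. The changes below are relative to library totals. In wild-type cells 14 members had an unadjusted p under 0.05.

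Zfp948 rose in 3 of the 4 lines, though in knockout cells not with size factors. It had 9.32, 7.42 and 8.53 CPM in formative knockout cells, against 5.12, 5.41 and 3.71 CPM in naive knockout cells, and 10.5, 12.4 and 12.5 CPM in formative floxed cells, against 4.84, 2.5 and 3.93 CPM in naive floxed cells. Catalytic-dead cells had 7.59, 8.99 and 10.7 CPM in the formative state, against 2.79, 3.35 and 5.91 CPM in the naive state. None of the 3 lines overlapped between states. The rises were 0.81, 1.64 and 1.19 log2 in knockout, floxed and catalytic-dead cells (limma adjusted p of 0.0326, 4.50e-05 and 0.00385), and the knockout call was lost without naive knockout library a (0.0662) or c (0.128) or formative knockout library a (0.123) or c (0.0626), with size factors (0.168) and without weights (0.0538). In wild-type cells the transition was 0.74 log2 (limma adjusted p = 0.144).

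Zfp867 rose in the same 3 lines, by 0.83, 0.95 and 0.84 log2 in knockout, floxed and catalytic-dead cells (limma adjusted p of 0.00880, 0.00104 and 0.00835), and by 0.62 log2 in wild type without passing (limma adjusted p = 0.0705). The knockout call was lost at 0.0670 without formative knockout library b and at 0.100 with size factors. Zfp853, a member without a KRAB core, was nearly silent in naive cells: naive wild-type libraries held 0 counts, and no naive library of the other lines held more than 1. Formative wild-type libraries held 4, 9 and 6 counts, at least 4.62-fold above the 0.130 CPM that 3 counts over both naive libraries would give. Formative floxed libraries held 17, 11 and 8 counts and formative catalytic-dead libraries 15, 9 and 7. It was called in those 3 lines, at limma adjusted p of 0.00725, 0.00135 and 0.000696, and the knockout line, with 9, 0 and 3 formative counts, missed the threshold (limma adjusted p = 0.126). Zfp853 reached the filter's 0.981 CPM only in formative floxed library a (1.3 CPM) and formative catalytic-dead libraries a and c (1.07 and 1.01 CPM). The filter thus let it in only through groups where it was high, so these calls cannot stand as support for the rise.

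Zfp821 rose in the floxed line by 0.77 and in the catalytic-dead line by 0.95 log2, and both calls held under every alternative (limma adjusted p of 0.00653 and 0.00180). In the floxed line the largest rise was Zfp946 at 2.16 ± 0.53 log2 (SE, limma adjusted p = 0.00205), with 4.35, 5.0 and 2.52 CPM in formative cells, against 1.12, 0.288 and 0.906 CPM in naive cells. Zfp942 and Zfp994 of the same run rose there by 1.03 and 1.55 log2 (limma adjusted p of 0.00334 and 0.00359), and 5 of the 10 tested members of the chromosome 17 run rose. Zfp958 and Zfp938 rose in the floxed line by 0.80 and 0.78 log2. Zfp937 and Zfp953 fell there by 1.18 and 0.63 log2 (limma adjusted p of 0.0216 and 0.0262). Zfp800 and Zfp932 rose in wild-type cells by 1.11 and 1.08 log2 (limma adjusted p of 0.0106 and 0.00753). Zfp958 rose in the catalytic-dead line by 0.52 log2 (limma adjusted p = 0.0353). The calls of Zfp937, Zfp953, Zfp800 and Zfp932 named here, and of Zfp958 in catalytic-dead cells, were each lost without 1 or more libraries. In the knockout line no call held without each library, Zfp963 having the largest, at 2.21 log2 (limma adjusted p = 0.0269), lost without naive knockout library a (0.177) or formative knockout library a (0.0506) or b (0.141) and with a prior count of 0.5 (0.0646). Zfp959, Zfp940 and Zfp868 rose there by 1.18, 0.87 and 0.86 log2 (limma adjusted p of 0.0239, 0.00945 and 0.0395). With size factors these rises were lost (0.0744, 0.0879 and 0.159). Zfp811 and Zfp938 fell there by 0.80 and 0.58 log2 (limma adjusted p of 0.00484 and 0.0382). The Zfp976 row that is Zfp977 in GENCODE fell by 1.33 log2 in wild type and 1.07 log2 in the floxed line, on naive wild-type values of 19.2 and 3.96 CPM, and without naive wild-type library a the wild-type difference was -0.22 log2 (limma adjusted p = 0.810). The floxed call was lost without formative floxed library a or c, and when library b or c of the naive floxed cells was left out (0.0550 to 0.139).

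**Figure D4:**
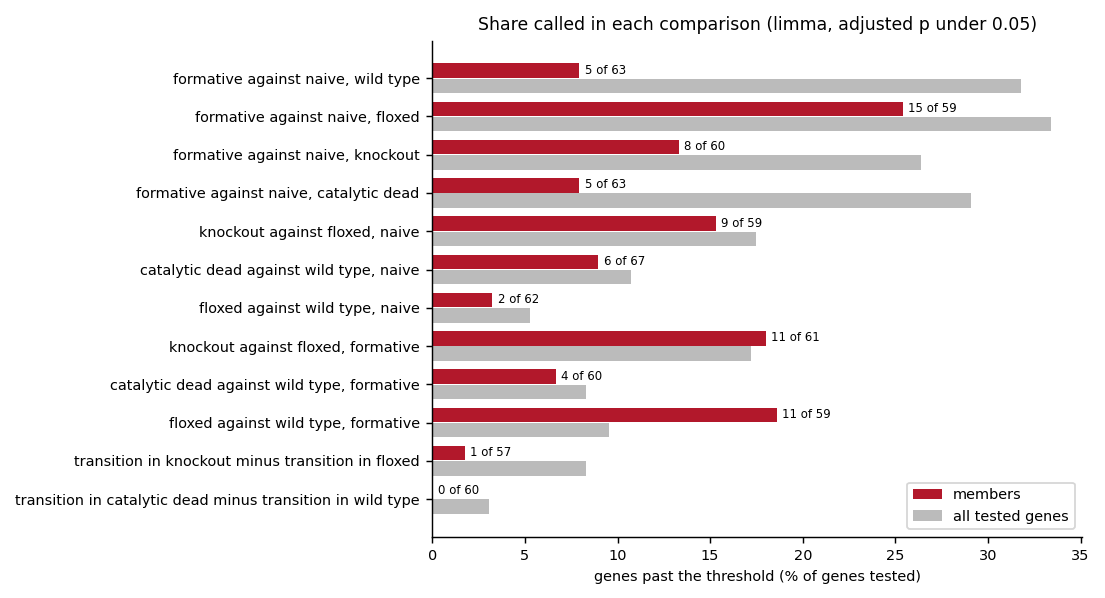
Bars give the share of tested genes called in each of the 12 comparisons, red for members (with their counts) and grey for all genes. Members lie below all genes in the 4 transitions and above them in floxed against wild type in the formative state.

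The difference between the catalytic-dead and wild-type transitions had 0 called members of 60 tested by limma, where 3.08% of all genes were called, 1.78% higher and 1.30% lower, and 6 members had an unadjusted p under 0.05. Over all 12 comparisons there were 77 calls, on 35 of the 72 members. Of the 77, 34 held without each library and 29 under all alternatives. The count of 29 also required the log2 change to stay similar in size. That left out the Zfp853 calls, which were not lost but grew with a prior count of 0.5. Another 32 members were tested and never called, and 5 had no test in any comparison.

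The silencing partners of KRAB zinc finger proteins could be tested only in part. Of 24 partner genes, 23 were in the table, and their summed level was 4530 to 5770 CPM per group. Trim28, the scaffold, had means of 669, 605, 640 and 839 CPM in formative knockout, floxed, catalytic-dead and wild-type cells, against 877, 1050, 960 and 1020 CPM in the same lines in the naive state, without a test. Setdb1, its methyltransferase, fell in the catalytic-dead transition by 0.92 log2 (limma adjusted p = 0.0038). Pphln1, a subunit of the HUSH silencing complex, rose in the knockout and catalytic-dead transitions by 1.06 and 1.43 log2 (limma adjusted p of 0.000251 and 8.31e-06). Without a test, it stood at 59.2 CPM in formative, against 8.86 CPM in naive wild-type cells, and at 42.3 CPM in formative, against 9.81 CPM in naive floxed cells. No other partner tested was called in any of the 12 comparisons, and no more than 6 were tested in 1 of them. Hdac1 nevertheless differed between lines by means. It had 66.0, 62.5, 15.8 and 15.1 CPM in formative knockout, floxed, catalytic-dead and wild-type cells. In the naive state it had 66.5, 68.7, 15.7 and 11.6 CPM in the same lines.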

How the data were processed

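Per the labels' protocols, RNA was made into QuantSeq 3′ libraries and read single-end for 50 bases. Per the submitters' processing notes, cutadapt 2.5, STAR, featureCounts of Subread 1.6.4 and DESeq2 1.34.0 were used with mm10. The sources used here do not give the handling of strand or of multiply aligned reads. The table the authors deposited holds 1 column per group. The low values the authors deposited were checked to be means, over a group's libraries, of log2 CPM with a prior count of 2. This held for a share of 0.917 of the low values in naive wild type and 1.0 in every other group. Higher values were taken to be made in the same way. The largest distance of a solved library size from a whole number was 0.042.

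Whole counts per library were recovered from those averages by searching for the only whole numbers that give each value, in windows of 8-, 4-, 3- and 2-fold around the mean, widths chosen once the yield was known. In all 8 groups 10029 genes (60.4%) were recovered, abundant genes least often. Of a total of 234513119 counts, 6812462 belong to a library in no column. The library of 6919314 counts that entered both the formative knockout and the formative catalytic-dead column was kept in formative catalytic-dead only. In formative knockout means and differences of means, as against tests and library values, the formative catalytic-dead mean stood in for it in every gene. The procedure and the test were tested on simulated data.

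All genes entered 1 limma model of 8 groups (limma 3.58.1, R 4.3.3), weighted by a lowess curve (span 0.3) of SD against mean count, with moderated, trended variances and Benjamini-Hochberg adjustment over all tested genes. Genes needed 0.981 CPM, or 10 counts at the median library size, in 3 libraries, and all 72 members passed. Zfp853 passed only through formative libraries, and Zfp991 only through floxed and knockout libraries. Replicates were separate cultures per the series' design text, and PCR duplicates could not be removed, so counts are not independent molecules. Alternatives were size factors, no filter, a filter of 20 counts, a prior count of 0.5, no weights, only the compared groups, the formative knockout mean as deposited, and leaving out each library.

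The members and lists were chosen with earlier results of these data known. Genes are named when past the threshold with the largest changes (up to 6 each way per comparison), highest or most variable over groups, known beforehand, called in 3 transitions or in both states, or in a run of 4 or more. Not every member known beforehand or in such a run is named. Other named members were chosen after their values were seen. KRAB cores and fingers were found by pattern in translated GENCODE vM21 transcripts, and promoters came from RefSeq (GRCm38.p6). Python 3 scripts with Biopython aligned promoters.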

Additional observations from a re-analysis of the deposited data

Results flagged for a closer look

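Zfp938 stood out because its change on leaving the naive state differed between the knockout and the floxed line by a direct test of that difference. The transition of the knockout line minus that of the floxed line was -1.36 ± 0.29 log2 (SE, limma adjusted p = 0.00278). In the knockout line Zfp938 had 18.0, 15.1 and 18.1 CPM in formative cells, against 24.6, 24.3 and 27.8 CPM in naive cells. In the floxed line it had 25.7, 26.5 and 25.6 CPM in formative cells, against 20.2, 13.0 and 12.8 CPM in naive cells.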

How the results depend on the processing

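Of 77 calls on members, 29 held under all alternatives, with a log2 change of similar size, and none changed direction in any setting. The Zfp853 calls are not among the 29. They stayed past the threshold with a prior count of 0.5, but their changes grew to 3.66, 3.16 and 3.66 log2 in the wild-type, floxed and catalytic-dead transitions. No paired analysis was possible because the deposited columns carry no replicate number. With size factors 12 members were called in the wild-type transition (9 lower) in place of 5, and 4 in place of 1 for the difference between knockout and floxed transitions. That difference also gave 4 with a filter of 20 counts and 3 with only its groups fitted. Fitting only the compared groups gave 10 in place of 5 in the catalytic-dead transition, 2 in place of 6 for catalytic-dead against wild type and 0 in place of 2 for floxed against wild type in naive cells. Knockout against floxed in formative cells gave 6 in place of 11 with the knockout mean as deposited, and floxed against wild type in formative cells gave 6 in place of 11 without weights. The cause was not tested. Shares of all genes in the alternative settings are not given, so the counts here describe stability only. Leaving out 1 library gave 4 to 9 members in the wild-type transition, 12 to 15 in the floxed, 3 to 5 in the knockout and 4 to 5 in the catalytic-dead transition. In naive cells it gave 7 to 9 for knockout against floxed, 2 to 8 for catalytic-dead against wild type and 1 to 3 for floxed against wild type. In formative cells it gave 4 to 10, 1 to 4 and 5 to 11 for these comparisons. For the differences of transitions it gave 1 to 3 in knockout minus floxed and 0 to 1 in catalytic-dead minus wild type. Size factors moved the median of all genes by -0.14 log2 in the wild-type and floxed transitions, by -0.24 log2 in the knockout transition and by -0.13 log2 for catalytic-dead against wild type in naive cells. Abundant members have no library values, and naive wild type rests on 2 libraries.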
